A study of Homo sapiens with 18 samples.

Results

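Passage through mitosis depends on a set of proteins that a cell makes mainly in G2 and M phase. Cyclin B and CDK1 drive entry, kinases such as PLK1 and AURKA build the spindle, kinetochore proteins attach chromosomes to microtubules, kinesin motors move them, and CDC20 with the anaphase-promoting complex releases the sister chromatids before the cell divides. The mRNAs of these genes rise and fall together with the cell cycle, and p53, acting through CDKN1A (p21), is known to lower them after damage. The 56 mitosis and spindle genes described here were chosen by symbol from these known roles, with earlier results of these data known. All 56 were found among the 23411 gene symbols of the count files.

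The mRNA was sequenced from ARPE-19, a spontaneously arising human retinal pigment epithelial cell line. Control cells had been transduced with lentiviral particles for Cas9 without a guide, and NRF2 ΔC cells with particles for Cas9 and a guide to exon 5 of NFE2L2, the gene of the oxidative stress factor NRF2. Both lines therefore carry Cas9. The edited line (C1 in the labels) has a stop codon in both alleles that removes the C-terminal part of NRF2. By the paper C1 is a clone picked after clonal selection, and whether the control cells were cloned is not said. Each genotype is represented by 1 line, so that the edit and other differences between the lines cannot be told apart. Each line was left untreated (water), treated with 1 mM NACET, the ethyl ester of N-acetylcysteine, or treated with 0.2 mM H2O2, with 3 samples in each of the 6 groups. The sources disagree on the schedule. By the series' design text the agents were added for 8 h to cells grown for 40 h in 10 % serum. The paper likewise describes 8 h of treatment begun 40 h after seeding, and 10 % serum for all work after its first transcriptome. By the labels of the samples the agents were added for 2 h to cells grown for 22 h in 1 % serum. The labels stand alone in this, and why they differ could not be settled here. Nothing in the labels says whether the 3 samples of a group were separate cultures, so that the p-values measure the spread between these samples, which may be technical.

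From 16673306 to 25951154 reads were counted on genes per library, and a member had between 63 counts (CENPA) and 9796 counts (TOP2A) in a library, so that no member was near the detection limit. NFE2L2 itself was measured at 122 to 126 CPM (TMM-normalized counts scaled to a library of 1000000 reads) in untreated control cells and at 124 to 128 CPM in untreated NRF2 ΔC cells; counts over the whole gene do not check a small edit. Of 13 markers of retinal pigment epithelium 8 had a median of at least 1 CPM, among them MITF at 119 CPM and OTX2 at 132 CPM, while RPE65 and TTR had a median of 0, and of 8 fibroblast markers only COL1A1 and PDGFRB passed 1 CPM.

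Promoters of the members are shown first, because these genes are known to share short elements that bind the cell cycle complexes DREAM and MuvB. Windows of 300 bases, from 250 before to 50 after the annotated start, were available from RefSeq (GRCh38.p14) for 48 of the 56 members. AURKA, TTK, BIRC5, TPX2, TROAP, CDCA2, UBE2C and FOXM1 had no window. The cell cycle genes homology region (CHR), searched as TTTGAA or TTCGAA on both strands, was found in 38 of these 48 members (79.2 %) and in 5336 of 27305 genes with a window (19.5 %). The CCAAT box, searched as CCAAT on both strands, was found in 41 members (85.4 %) against 39.7 % of all genes, and 33 members had both elements. An E2F site, searched as GGCGGGAA, TTTCGCGC or TTTCCCGC on both strands, with the first and the last of these able to overlap, was found in 6 members (12.5 %) against 5.31 % of all genes. A gene with several annotated starts was counted when any window held the motif, and counted by window the CHR was in 41 of 59 (69.5 %) against 16.4 %. A stretch of 30 bases is given for each of the 8 roles in which a member held TTTGAA in the 75 bases before the start. The whole stretch had to lie before the start, so that matches too near the start were not taken. It comes from the member with such a match that fell most with H2O2 in NRF2 ΔC cells (CCNB2 was level with CDC25C) and is written 5′ to 3′ along the gene. Capitals mark each CHR match in the stretch, and the base given is the first of the chosen match. HMMR and ANLN hold a further match, from bases -28 and -26.
CCNB2, chr15:59105105-59105134, plus strand, CHR from base -29: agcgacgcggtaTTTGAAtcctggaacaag
PLK1, chr16:23678848-23678877, plus strand, CHR from base -29: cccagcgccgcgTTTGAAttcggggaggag
CDCA8, chr1:37692481-37692510, plus strand, CHR from base -23: gtgactgtggagTTTGAAttgggtggcggt
CENPA, chr2:26786026-26786055, plus strand, CHR from base -18: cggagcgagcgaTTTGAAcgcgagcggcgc
KIF4A, chrX:70290058-70290087, plus strand, CHR from base -34: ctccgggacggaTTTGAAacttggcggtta
HMMR, chr5:163460598-163460627, plus strand, CHR from base -22: gggagaTTTGAATTTGAAaccggtagggag
CDC20, chr1:43358904-43358933, plus strand, CHR from base -65: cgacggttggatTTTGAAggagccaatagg
ANLN, chr7:36389830-36389859, plus strand, CHR from base -20: ctgaaaTTCAAATTTGAAcggctgcagagg
The chosen match lay within 65 bases before the start in all 8, where the search itself allowed no more than 75. A match is only a match of letters, and members with a CHR (median log2 fold change -1.71 with H2O2 in NRF2 ΔC cells) and the 10 without one (-1.82) had close medians.

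The members stood lowest in NRF2 ΔC cells with H2O2. In untreated cells their summed level was 3890 ± 1050 CPM in control cells and 4970 ± 1280 CPM in NRF2 ΔC cells (SD, n = 3). With NACET the sum was 3870 ± 711 CPM in control cells and 4770 ± 1010 CPM in NRF2 ΔC cells. With H2O2 it was 3520 ± 330 CPM in control cells and 1520 ± 463 CPM in NRF2 ΔC cells, where the highest library, at 2020 CPM, lay below every other library of the study. The lowest of those others was an untreated control library at 2690 CPM. In mRNA from a whole culture, fewer cells in mitosis and less mRNA per cell cannot be told apart.

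**Figure D1:**
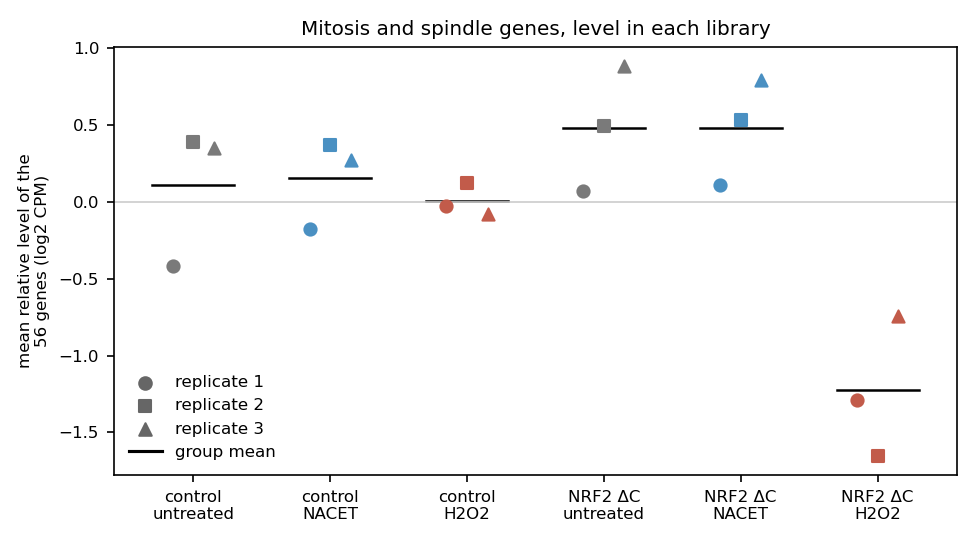
Mean relative level of the 56 genes in each library, that is log2(CPM + 0.5) minus the gene's own mean over the 18 libraries, averaged over the genes. The 3 libraries of NRF2 ΔC cells with H2O2 lie at -1.29, -1.65 and -0.74, and all others lie between -0.42 and 0.88; bars are group means.

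H2O2 lowered nearly the whole set in NRF2 ΔC cells. Of the 56 members 52 fell, that is with an adjusted p under 0.05 and a change of 0.6 or more on the log2 scale, and none rose, where 5.55 % of the 13543 genes tested fell by the same criteria. The median log2 fold change of the members was -1.63, against -0.01 for all genes, and the range was -3.22 to -0.61. In 51 members every H2O2 library was below every untreated library, which held for 15.7 % of all genes. The replicate numbers paired the samples within a line, and with the number as a block 55 members fell (11.5 % of all genes). The count was 25 without NRF2 ΔC untreated replicate 2, 30 without its replicate 3 and 28 without NRF2 ΔC H2O2 replicate 2, and 25 members fell whichever of the 6 samples was left out.

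Among the cyclins, CDK1 and its activators all 6 members fell. CCNB1, the cyclin B whose binding activates CDK1 at mitotic entry, stood at 113, 148 and 216 CPM in untreated and at 38.7, 28.3 and 60.8 CPM in H2O2-treated NRF2 ΔC cells. It fell by 1.92 on the log2 scale (SE 0.31, adjusted p = 0.0089). CCNA2, the cyclin A of S phase and G2, went from 69.7, 96.6 and 114 CPM to 26.1, 20.1 and 39.2 CPM. The groups did not overlap for either cyclin, and CCNA2 fell by 1.73 (SE 0.27, adjusted p = 0.00754). CDK1, the catalytic partner of both, fell by 1.30 (SE 0.27, adjusted p = 0.0201), and CDC25B and CDC25C, the phosphatases that activate it, had log2 fold changes of -1.28 and -1.55.

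All 6 mitotic kinases and checkpoint genes fell, with a median of -2.10. PLK1, which acts at centrosomes, kinetochores and the midbody, was at 61.4, 115 and 130 CPM in untreated cells and at 14.6, 8.31 and 29.5 CPM with H2O2. Its change of -2.56 (SE 0.45, adjusted p = 0.0111) was the third largest fall of the set. BUB1, a spindle checkpoint kinase at kinetochores, went from 69.8, 83.1 and 109 CPM to 18.0, 10.9 and 25.8 CPM, a change of -2.27 (SE 0.30, adjusted p = 0.00477). NEK2, a kinase of centrosome separation, changed by -2.27 as well, AURKA, the kinase of spindle poles, by -1.92, BUB1B, which restrains CDC20, by -1.61 and TTK, the kinase that starts checkpoint signalling, by -1.59. In the chromosomal passenger complex, which corrects wrong attachments, INCENP (-1.48), CDCA8 (-1.51) and BIRC5 (-1.32) fell. AURKB, its kinase, had 19.6, 42.7 and 54.2 CPM untreated and 10.8, 13.2 and 25.5 CPM with H2O2; the groups overlapped and the change of -1.25 did not pass (SE 0.41, adjusted p = 0.0803), though it did with the replicate block.

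All 9 centromere and kinetochore genes fell. SGOL2, a shugoshin that protects centromeric cohesion, was at 28.5, 33.8 and 31.9 CPM untreated and at 8.07, 5.49 and 6.19 CPM with H2O2. Its change of -2.28 (SE 0.18, adjusted p = 0.00105) had the smallest adjusted p of the members, and both groups had a narrow spread. CENPE, a kinesin of the kinetochore, went from 57.7, 60.6 and 82.0 CPM to 18.0, 7.49 and 17.0 CPM, a change of -2.26 (SE 0.31, adjusted p = 0.00523). CENPF, a large outer kinetochore protein, changed by -1.71 (SE 0.23, adjusted p = 0.00488) and CENPA, the histone H3 variant that marks centromeres, by -1.72 (SE 0.34, adjusted p = 0.017). The 4 subunits of the NDC80 complex, the microtubule coupler of the kinetochore, changed by -1.51 (NDC80), -1.75 (NUF2), -1.59 (SPC24) and -1.20 (SPC25), and SPC25 passed narrowly (adjusted p = 0.0494).

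All 8 kinesins fell, and KIF20A had the largest fall of the 56. This motor of late mitosis and cytokinesis was at 99.1, 116 and 155 CPM in untreated cells and at 15.1, 6.06 and 19.2 CPM with H2O2. The change was -3.22 (SE 0.38, adjusted p = 0.00302). KIF14, a kinesin of cytokinesis, went from 33.2, 32.7 and 39.9 CPM to 7.45, 4.82 and 8.50 CPM, a change of -2.37 (SE 0.22, adjusted p = 0.0015). KIF11, which pushes spindle poles apart, changed by -1.65 (SE 0.22, adjusted p = 0.00498), and KIF23, part of centralspindlin, by -1.52 (SE 0.31, adjusted p = 0.0201). KIF18A and KIF15 were the least changed kinesins, at -1.20 and -1.17. KIF4A (-1.82) has a near-identical copy, KIF4B, and reads that matched both equally well were left out of its count.

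All 11 genes of spindle assembly and chromosome structure fell. HMMR, a spindle-associated protein, was at 50, 73.9 and 107 CPM untreated and at 10.7, 7.80 and 15.8 CPM with H2O2, the second largest fall (-2.77, SE 0.33, adjusted p = 0.00331). DLGAP5, which stabilizes kinetochore fibres, changed by -2.52 (SE 0.34, adjusted p = 0.00477). TOP2A, the topoisomerase that decatenates chromosomes, and MKI67, the Ki-67 antigen of proliferating cells, changed by -2.0 (SE 0.29, adjusted p = 0.00615) and -2.04 (SE 0.24, adjusted p = 0.00298). ASPM, at spindle poles, changed by -2.18. TPX2, which activates AURKA on the spindle, changed least, from 143, 206 and 279 CPM to 72.0, 77.0 and 125 CPM (-1.22, SE 0.28, adjusted p = 0.0286).

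Of the 5 genes grouped here under anaphase promotion and cohesion release 3 fell. CDC20, the activator of the anaphase-promoting complex, was at 64.0, 104 and 125 CPM untreated and at 12.8, 12.4 and 30 CPM with H2O2 (-2.42, SE 0.38, adjusted p = 0.00762). UBE2C, a ubiquitin-conjugating enzyme of that complex, changed by -1.60 (SE 0.40, adjusted p = 0.0364), and CDCA3 by -2.23 (SE 0.39, adjusted p = 0.0113). PTTG1, the securin that inhibits separase, was at 41.4, 56.9 and 84.0 CPM untreated and at 28.5, 42.8 and 49.9 CPM with H2O2. These groups overlapped, and PTTG1 was the member that passed neither without the block (-0.61, SE 0.28, adjusted p = 0.184) nor with it. Reads that matched PTTG1 and PTTG2, a near-identical gene, equally well were left out of its count. ESPL1, separase itself, had a log2 fold change of -1.29 (adjusted p = 0.0569) and passed only with the block.

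All 4 cytokinesis genes fell, namely ANLN (-2.04), CEP55 (-1.78), PRC1 (-1.61) and ECT2 (-1.57). ANLN, the scaffold of the contractile ring, went from 251, 264 and 333 CPM to 83.5, 44.5 and 81.6 CPM (SE 0.25, adjusted p = 0.00331). FOXM1, a transcription factor of G2 and M phase genes, was at 74.0, 136 and 152 CPM untreated and at 50.5, 62.8 and 91.1 CPM with H2O2. The groups overlapped, and the change of -0.84 (SE 0.29, adjusted p = 0.0947) passed only with the block. DEPDC1 and DEPDC1B changed by -2.05 and -1.61.

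**Figure D2:**
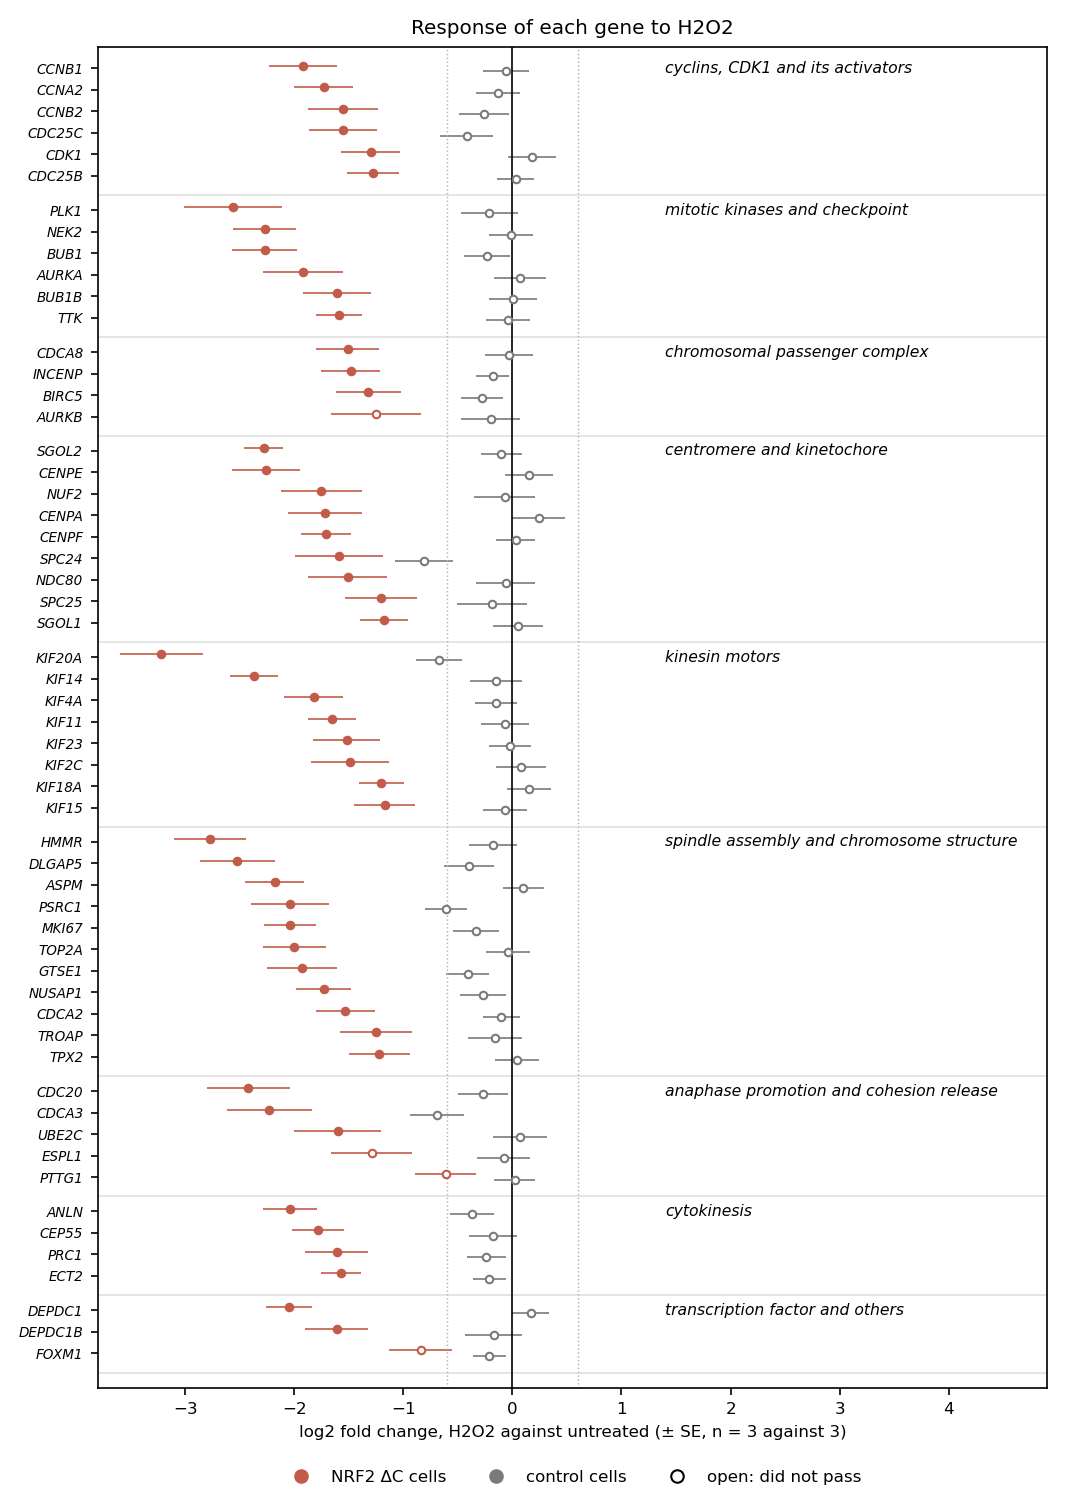
Log2 fold change of each gene with H2O2 against untreated cells of the same line, with its SE, by role; filled points passed the test, open points did not, and dotted lines mark 0.6 in either direction. All 56 points of NRF2 ΔC cells lie at or below -0.61, and those of control cells lie between -0.81 and 0.24 with none filled.

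In control cells the same dose of H2O2 changed no member past the threshold (0 of 56, against 6.33 % of 13691 genes in either direction). At an unadjusted p under 0.05, 4 members were lower (15.1 % of all genes), and DESeq2 called 4 lower (3.97 %). The median log2 fold change was -0.12 and single members ranged from -0.81 (SPC24) to 0.24 (CENPA). CCNB1 was at 86.2, 162 and 152 CPM untreated and at 140, 129 and 113 CPM with H2O2, a change of -0.06. HMMR was at 36.9, 66.0 and 71.3 CPM and at 50.2, 47.6 and 56.2 CPM, a change of -0.18. With the replicate block 3 members fell, against 5.97 % of all genes. These were SPC24 (without the block -0.81), CDCA3 (-0.69) and KIF20A (-0.67), and the 4 called by DESeq2 were the same 3 with PSRC1 (-0.61). The untreated control library of replicate 1 was low in the whole set (relative level -0.42 against 0.39 and 0.35 for the others). Without it the median was -0.35 and 7 members fell. The share of all genes that fell in that fit is not given, so that this count has no background.

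**Figure D3:**
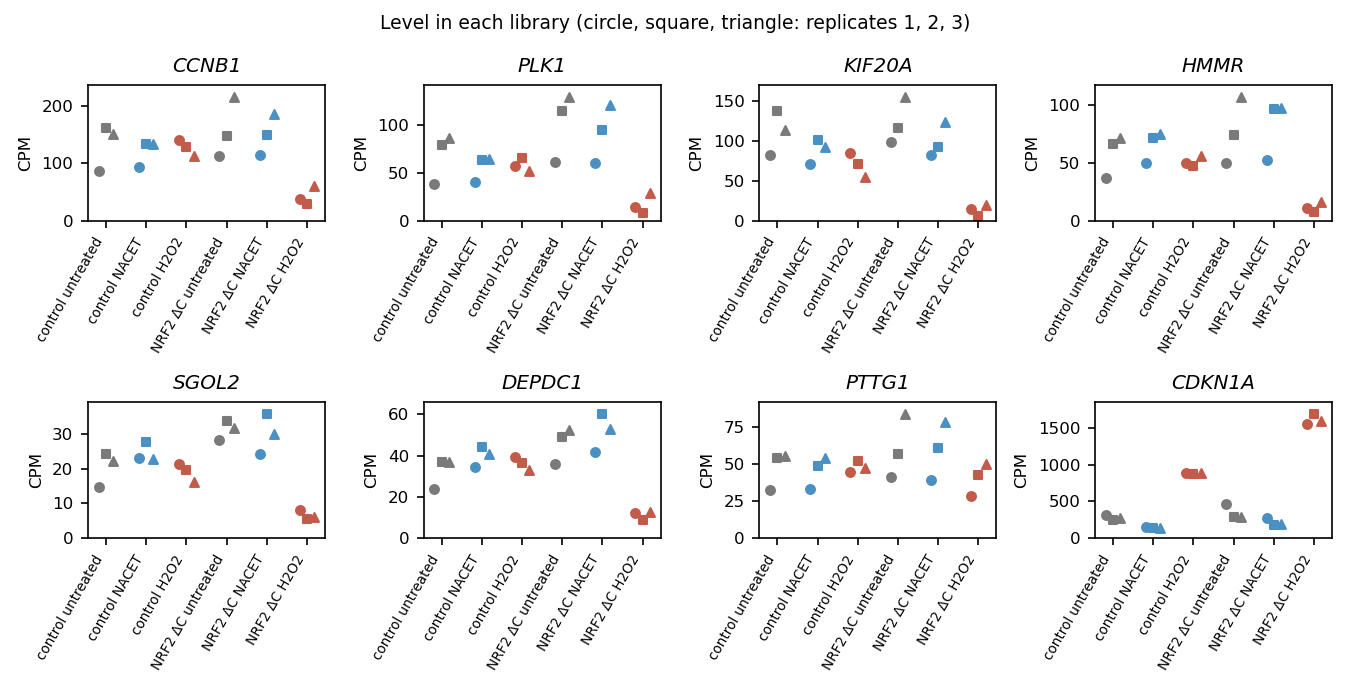
CPM of 7 members and of CDKN1A in each library, with circles, squares and triangles for replicates 1, 2 and 3. For CCNB1, PLK1, KIF20A, HMMR, SGOL2 and DEPDC1 the 3 NRF2 ΔC libraries with H2O2 are the lowest of the 18, those of PTTG1 mix with the other groups, and those of CDKN1A, from 1550 to 1690 CPM, are the highest.

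Whether the response to H2O2 differed between the lines was tested as the interaction of treatment and line over 12 samples, on the adjusted p alone. All 56 members had a lower response in NRF2 ΔC than in control cells, with a median difference of -1.52 against 0.02 for all genes and a range of -2.57 to -0.61. The interaction passed for 2 members, where 0.0143 % of the 13987 genes passed in this direction, which is these 2 genes alone. They were DEPDC1 (difference -2.20, SE 0.29, adjusted p = 0.0183) and SGOL2 (-2.16, SE 0.27, adjusted p = 0.0183). DEPDC1 was at 23.8, 36.8 and 36.7 CPM in untreated and 39.4, 36.6 and 33.1 CPM in H2O2-treated control cells. In NRF2 ΔC cells it was at 35.9, 49.2 and 52.6 CPM untreated and at 12.1, 8.93 and 12.7 CPM with H2O2, below every other library. SGOL2 in control cells went from 14.9, 24.2 and 22.2 CPM to 21.3, 19.7 and 16.3 CPM, so that its groups overlapped there. At an unadjusted p under 0.05 the interaction held for 51 members, against 3.07 % of all genes.

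The count of called members depended on the pairing. With the replicate number as a block within each line, which is the pairing that the samples show, 55 members passed (4.49 % of all genes), and SPC24 was the exception (-0.81, adjusted p = 0.0601). KIF20A then had a difference of -2.59 (adjusted p = 3.54e-05), HMMR of -2.61 (7.25e-06), CCNB1 of -1.90 (6.69e-05), PLK1 of -2.46 (0.000183) and PTTG1 of -0.63 (0.0203). DESeq2 without a block called 31 members (0.409 % of its genes were called lower). Leaving out 1 sample at a time gave 0 to 4 called members, and 0 without NRF2 ΔC H2O2 replicate 2 or 3, NRF2 ΔC untreated replicate 2 or 3, or control H2O2 replicate 1 or 2; the median stayed between -1.88 and -1.25.

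Between samples of the same number, the mean of the members changed with H2O2 in NRF2 ΔC cells by -1.37, -2.15 and -1.63 (replicates 1, 2 and 3), and all 56 members were lower in each. In control cells it changed by 0.39, -0.27 and -0.43, with 55 members higher in the first pair, 51 lower in the second and 55 lower in the third. For each of the 56 members every difference in NRF2 ΔC cells was below every difference in control cells, which held for 13.2 % of the genes tested. For NACET it held for 2 members. The share of all genes is not given for NACET, so that this count has no background to be read against.

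**Figure D4:**
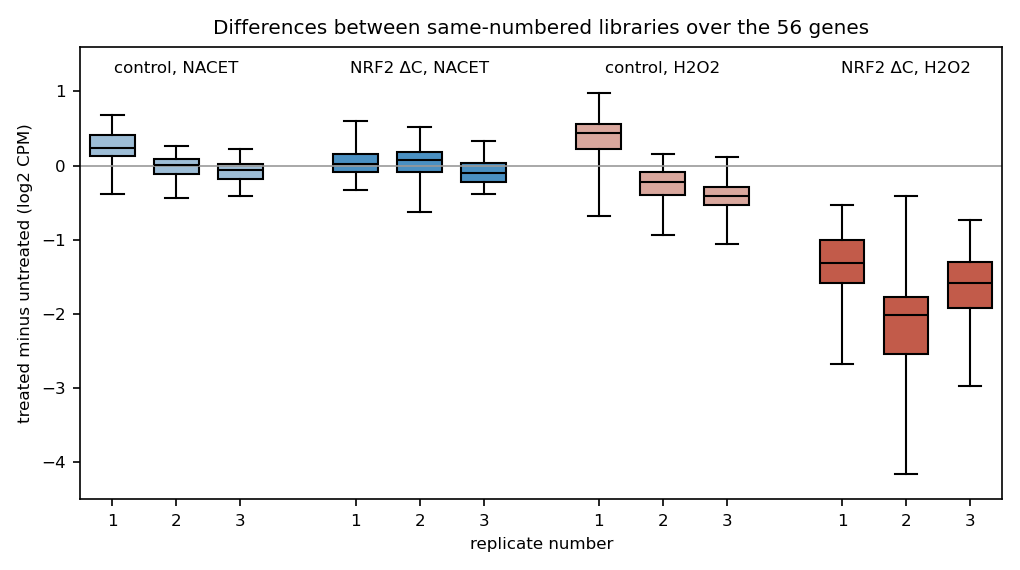
Differences in log2(CPM + 0.5) between treated and untreated libraries of the same replicate number over the 56 genes; boxes are quartiles with the median, and whiskers reach the lowest and the highest gene. The 3 boxes for H2O2 in NRF2 ΔC cells (means -1.37, -2.15 and -1.63) lie wholly below 0 with their whiskers; in control cells with H2O2, 55 genes of the first pair lie above 0, and 51 of the second and 55 of the third lie below.

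Compared directly under H2O2, 41 members were lower in NRF2 ΔC than in control cells and none higher, against 4.2 % of 13580 genes lower. The median was -1.18 and all 56 values were below 0. KIF20A was at 84.2, 71.2 and 54.3 CPM in control and at 15.1, 6.06 and 19.2 CPM in NRF2 ΔC cells (-2.39, adjusted p = 0.00482). HMMR (-2.18, adjusted p = 0.000974) and KIF14 (-1.97, adjusted p = 0.00147) followed. All 6 mitotic kinases and checkpoint genes were lower, but of the passenger complex only CDCA8 and of the genes grouped under anaphase only CDC20. BIRC5 (-0.55, adjusted p = 0.159), FOXM1 (-0.31, adjusted p = 0.383) and PTTG1 (-0.26, adjusted p = 0.433) did not pass. Without control H2O2 replicate 2 the count was 22, and without NRF2 ΔC H2O2 replicate 2 it was 27.

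Between the untreated lines no member passed (0 of 56, against 3.85 % of 13710 genes). At an unadjusted p under 0.05, 5 were higher (4.78 % of all genes), and DESeq2 called 1 higher (0.886 %). All 56 values were above 0, with a median of 0.36 (0.01 for all genes), the largest being ESPL1 at 0.66 and SGOL2 at 0.62. The median was 0.15 without control untreated replicate 1 and 0.55 without NRF2 ΔC untreated replicate 1. Under NACET no member passed between the lines (0 of 56, against 4.76 % of 13627 genes), with a median of 0.29. At an unadjusted p under 0.05, 4 members were higher (7.87 % of all genes), and DESeq2 called none (5.46 % in either direction). That median was 0.13 without NRF2 ΔC NACET replicate 3 and 0.47 without its replicate 1.

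NACET changed no member past the threshold in either line. In control cells no member was called (against 2.75 % of 13696 genes), none had an unadjusted p under 0.05 (20.8 % of all genes), and DESeq2 called none (4.24 %). The median there was 0.06 with a range of -0.33 to 0.30, and it was -0.18 without control untreated replicate 1 and 0.21 without control NACET replicate 1. In NRF2 ΔC cells again no member was called (against 1.39 % of 13542 genes), none had an unadjusted p under 0.05 (18.6 %), and DESeq2 called none (4.32 %). The median was -0.05, and it was -0.21 without NRF2 ΔC NACET replicate 3 and 0.22 without NRF2 ΔC untreated replicate 3. The interaction of NACET and line passed for no member (0.0643 % of 14002 genes passed, in either direction), none had an unadjusted p under 0.05 (1.63 %) and DESeq2 called none (0.178 %). Set against NACET instead of water, H2O2 lowered 51 members in NRF2 ΔC cells (5.09 % of 13489 genes were lower), with a median of -1.64; the count was 22 without NRF2 ΔC NACET replicate 2, 30 without its replicate 3 and 27 without NRF2 ΔC H2O2 replicate 2. In control cells that contrast passed for none (3.67 % of 13581 genes in either direction), with 9 members lower at an unadjusted p under 0.05 (12.8 %), 1 called lower by DESeq2 (3.04 %) and 1, CDCA3, lower with the block (4.86 % of all genes). These contrasts share the H2O2 libraries with those against untreated cells.

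Other genes of the pathway were taken from lists written with earlier results of these data known, so that their counts are descriptive. Of 55 other mitosis genes 28 fell with H2O2 in NRF2 ΔC cells (5.55 % of all genes fell) and none rose, with a median of -0.85. CENPI, a centromere protein, changed by -1.97 (adjusted p = 0.0103) and CASC5, the kinetochore scaffold also named KNL1, by -1.91 (adjusted p = 0.00695). In control cells none of the 55 passed by edgeR or DESeq2, 1 was lower at an unadjusted p under 0.05 (15.1 % of all genes), and the median was -0.03. Of 28 genes of S phase and replication 6 fell in NRF2 ΔC cells (5.55 % of all genes), with a median of -0.54, among them UHRF1 (-1.53), which maintains DNA methylation, and POLE2 (-1.36), a subunit of DNA polymerase epsilon. With the block 12 fell (11.5 % of all genes) and 1 rose (7.26 %). In control cells none of the 28 passed, while 2 were lower (15.1 %) and 2 higher (15.6 %) at an unadjusted p under 0.05. DESeq2 called 2 of the 28 lower there (3.97 %), and the block called 2 lower (5.97 %) and 1 higher (4.26 %).

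With NACET the lists gave other values than the members. In control cells 6 of 22 p53 targets fell (1.35 % of all genes fell), among them BTG2, an antiproliferative gene, at -1.0 (adjusted p = 0.0169) and CDKN1A at -0.95 (adjusted p = 0.0133). Of 28 S phase genes 1 rose (2.75 % of all genes passed in either direction), ORC1 of the origin recognition complex, at 1.22 (adjusted p = 0.0353). With the replicate block 12 of the 28 S phase genes rose (3.65 % of all genes), with a median of 0.54. None of the 55 other mitosis genes passed without the block, 3 were higher at an unadjusted p under 0.05 (10.6 % of all genes), 2 rose with it, and DESeq2 called none. DESeq2 called 7 S phase genes higher (2.31 %). In NRF2 ΔC cells the p53 targets BTG2 (-1.26, adjusted p = 0.0101) and FDXR (-0.95, adjusted p = 0.0135) also fell. PLK3 rose there (0.69, adjusted p = 0.0317), and 1.39 % of all genes passed in either direction. CDKN1A, at -0.69, passed there only with the block (adjusted p = 0.179 without it). DESeq2 called 5 p53 targets lower and 1 higher there (4.32 % in either direction). With the block MCM7 fell there, and CDC6, CDT1, RFC4 and ORC1 rose.

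Of 22 p53 targets tested 17 rose with H2O2 in NRF2 ΔC cells (4.26 % of all genes rose), with a median of 1.17, and 14 rose in control cells (2.96 % of all genes), with a median of 0.72. CDKN1A, the CDK inhibitor p21, was at 312, 242 and 268 CPM in untreated and at 880, 872 and 888 CPM in H2O2-treated control cells, a change of 1.69 (SE 0.11, adjusted p = 0.000836). In NRF2 ΔC cells it went from 463, 285 and 283 CPM to 1550, 1690 and 1600 CPM, a change of 2.21 (SE 0.21, adjusted p = 0.0015). MDM2, the ubiquitin ligase of p53, changed by 1.32 and 1.59 and SESN2, a stress-induced sestrin, by 1.75 and 2.89. Without a block the difference between the lines did not pass for CDKN1A (0.54, SE 0.24, adjusted p = 0.852), MDM2 (0.29, adjusted p = 0.919) or SESN2 (1.16, adjusted p = 0.379). With the block within each line it passed for CDKN1A (0.57, adjusted p = 0.0468) and SESN2 (1.1, adjusted p = 0.00523) and not for MDM2 (0.27, adjusted p = 0.31), and 8 of the 22 targets were then called higher (2.42 % of all genes). DESeq2 without a block called 1 of them higher (0.094 %). Under H2O2 itself CDKN1A was higher in NRF2 ΔC than in control cells (0.86, adjusted p = 0.00257). The part of these genes in the fall of the mitotic genes was not tested.

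Among 27 regulators of the mitotic genes tested in NRF2 ΔC cells 3 fell (5.55 % of all genes) and 3 rose (4.26 %) with H2O2, and with the block 6 fell (11.5 %) and 3 rose (7.26 %). CDKN2C, a CDK4 and CDK6 inhibitor, changed by -1.66 (adjusted p = 0.0107), and E2F7, a repressor of the E2F family, by 1.05 (adjusted p = 0.0154), along with rises of CDKN1A and E2F5. RBL1 (-0.78, adjusted p = 0.0472) and CDKN1B (-0.65, adjusted p = 0.0143) also fell. In control cells 2 of 29 fell and 2 rose (6.33 % of all genes passed in either direction and 2.96 % rose). CDKN2C changed there by -0.75 (adjusted p = 0.0213), CDKN1C, another CDK inhibitor, by -1.74 (adjusted p = 0.0465) and E2F5 by 0.73 (adjusted p = 0.0114), while E2F7 at 0.86 passed with the block and not without it (adjusted p = 0.0523). CDKN2C and E2F7 in NRF2 ΔC cells no longer passed without untreated or H2O2 replicate 2, and E2F5 there not without untreated replicate 2 or 3 or H2O2 replicate 2. In control cells CDKN2C no longer passed without untreated replicate 2 or H2O2 replicate 1 or 2, and E2F5 not without H2O2 replicate 2. CDKN1C no longer passed when any of its samples other than untreated replicate 1 was left out, and E2F7 passed without untreated replicate 2. MYBL2 (B-MYB) is the partner of MuvB at CHR elements. In NRF2 ΔC cells it had 59.9, 108 and 108 CPM untreated and 48.3, 75.2 and 85.9 CPM with H2O2. Its change there was -0.42 (adjusted p = 0.332). E2F1 had a log2 fold change of -0.52 in NRF2 ΔC cells (adjusted p = 0.417). Neither passed, and the groups overlapped for both.

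Markers of the cell type moved with H2O2 as well, in both lines. The summed level of the 13 markers of retinal pigment epithelium was 1308 to 1431 CPM in untreated and 973.7 to 1078 CPM in H2O2-treated NRF2 ΔC cells, and 1349 to 1402 against 965.8 to 1039 CPM in control cells. KRT8 (median 545 CPM over all libraries) and KRT18 (405 CPM) were the largest parts of this sum. The sum therefore follows mainly these genes and not the 13 markers as a set. Neither KRT8 nor KRT18 was called in either line, with the block or without it. In control cells both passed on the adjusted p and missed only the limit on the log2 fold change. KRT8 had -0.49 there (adjusted p = 0.0123) and KRT18 -0.53 (adjusted p = 0.00937). Of the 9 markers tested in NRF2 ΔC cells MITF (-0.74, adjusted p = 0.0388) and LRAT (-0.78, adjusted p = 0.0495) fell, and BEST1, a chloride channel, rose from 0.341, 0.194 and 0.184 CPM to 3.44, 2.98 and 3.54 CPM (3.76, adjusted p = 0.00118). By the same criteria 5.55 % of all genes fell there and 4.26 % rose. In control cells BEST1 was the one of 9 that passed (1.70, adjusted p = 0.00751), against 6.33 % of all genes in either direction. The 8 fibroblast markers summed to 256.3 to 471.5 CPM untreated and 123 to 244.7 CPM with H2O2 in NRF2 ΔC cells, and to 354.7 to 632.4 against 218.1 to 339.2 CPM in control cells. PDGFRB, a growth factor receptor, fell in both (-1.18, adjusted p = 0.0348, and -0.75, adjusted p = 0.0382), and COL1A1 had -0.96 and -0.99 and passed with the block and not without it. In NRF2 ΔC cells MITF, LRAT and PDGFRB no longer passed without untreated replicate 1 or 2 or without H2O2 replicate 2 or 3, and MITF and LRAT also not without untreated replicate 3. In control cells PDGFRB no longer passed without untreated replicate 1 or 2 or without H2O2 replicate 2 or 3. The part of these markers in the result was not tested.

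**Figure D5:**
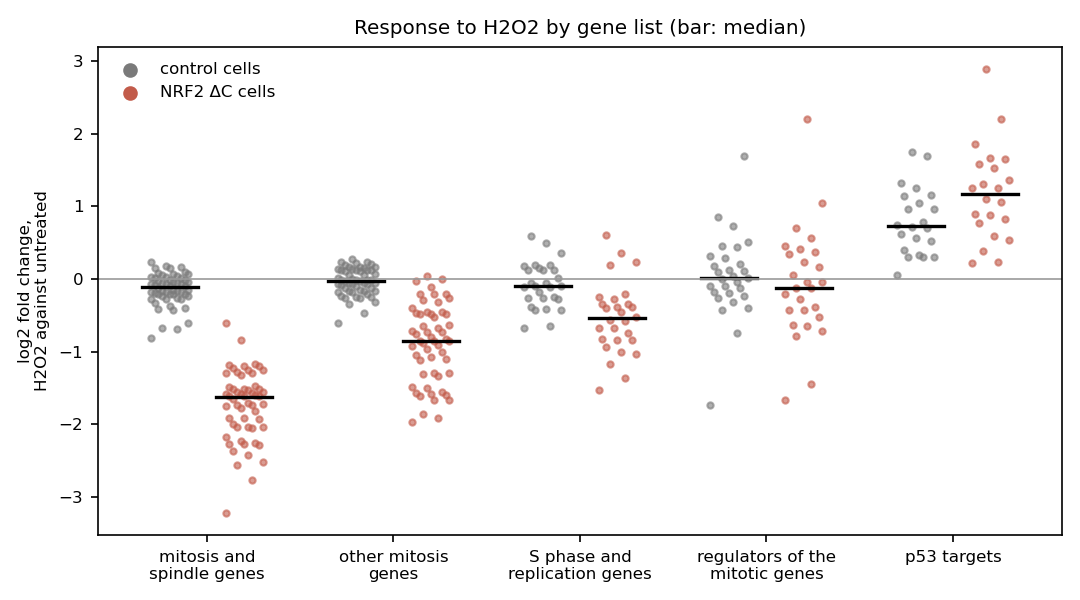
Log2 fold change with H2O2 against untreated cells for each gene of 5 lists in control and in NRF2 ΔC cells, with the median as a bar. In NRF2 ΔC cells the medians are -1.63 for the mitosis and spindle genes, -0.85 for other mitosis genes, -0.54 for S phase genes, -0.12 for regulators and 1.17 for p53 targets.

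Exons of 13 members overlap exons of another gene in the files, for 11 of them on the opposite strand (for example KIF20A with BRD8 and CDC23, and CCNA2 with EXOSC9). Reads of such partners cannot be told apart there by strand, since the counting did not use it. A read within exons of both genes is left out as ambiguous. The overlaps were taken from GENCODE gene models, which may differ from those used in the counting.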

How the data were processed

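Poly(A) mRNA libraries (TruSeq, single end) of 18 ARPE-19 samples were mapped by the authors to hg19 with TopHat 2.1.0 and counted per gene with HTSeq 0.11.2 without regard to strand. The values the authors deposited are raw counts for each gene symbol, with rRNA genes removed. The 5 summary lines that name no gene entered neither library sizes nor tests and held between 15.0 and 17.5 % (no feature), 0.955 and 1.18 % (ambiguous) and 8.24 and 10.4 % (several places) of a library.

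Groups and replicate numbers came from the sample labels. Counts were tested with edgeR 4.0.16 in R 4.3.3 (filterByExpr, TMM, quasi-likelihood test, Benjamini-Hochberg over all genes), each pair of groups on its own 6 samples, called at an adjusted p under 0.05 and a log2 fold change of 0.6 in size; the 2 interactions used 12 samples and the adjusted p alone. CPM are counts scaled to 1000000 reads with TMM factors over 18 samples. The script was tested on simulated data. Same-numbered samples of a line deviated together over 11007 genes (correlations 0.471 to 0.874), so the numbers pair samples within a line. Across lines numbers 1 and 3 gave 0.593 to 0.777, and number 2 gave -0.259 to -0.039. Alternatives were DESeq2 1.42.0, RLE and upper-quartile normalization, no filter, a filter of 1 CPM in 3 samples, 1 fit of 18 samples, blocks, no fold limit and leaving out samples.

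The members and lists were chosen with earlier results of these data known. Genes named were NFE2L2, a panel of members, the 3 called members that rose or fell most, members called in an interaction, any member by its role, and in other lists CDKN1A, MDM2, MYBL2, E2F1 and the 2 called genes that rose or fell most. Some genes were named after their values were seen. These were E2F5, E2F7, CDKN2C and CDKN1C in control cells, CDKN1B in NRF2 ΔC cells, CDCA3 and the marker genes. They also include the S phase genes named with NACET in NRF2 ΔC cells and the DESeq2 calls outside this rule. Of the gene models, 48 of 56 matched a RefSeq promoter by symbol, 2 through the newer symbols of SGOL1 and SGOL2. The precision is set by 3 samples a group more than by depth.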

Additional observations from a re-analysis of the deposited data

Results flagged for a closer look

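The response to H2O2 of 2 members differed between NRF2 ΔC and control cells by the test of the interaction (edgeR, adjusted over 13987 genes). For DEPDC1 the difference was -2.20 (log2), from a change of 0.17 in control cells and of -2.05 in NRF2 ΔC cells, with an adjusted p of 0.0183. For SGOL2, a protector of centromeric cohesion, it was -2.16, from -0.10 and -2.28, with an adjusted p of 0.0183. Both kept the direction in every alternative run, and passed in 6 of the 12 fits that left out 1 sample; leaving out 1 sample at a time gave differences of -2.34 to -2.01 for DEPDC1 and of -2.32 to -1.98 for SGOL2.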

How the results depend on the processing

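Over the alternatives planned and added, no member named for the H2O2 response of NRF2 ΔC cells, for its difference from control cells or for the contrast with NACET changed direction. Without a replicate the count of called members ran from 25 to 55 for H2O2 in NRF2 ΔC cells, from 22 to 51 for NRF2 ΔC against control cells with H2O2, from 22 to 55 for H2O2 against NACET in NRF2 ΔC cells, from 0 to 7 for H2O2 in control cells, from 0 to 2 for H2O2 against NACET in control cells and for the lines with NACET, from 0 to 1 for the untreated lines, and from 0 to 4 for the interaction of H2O2 and line. The interaction called 2 members, but 31 with DESeq2, 9 without the filter on low counts, 10 in 1 fit of all 18 samples, 48 with the replicate block over both lines and 55 with the block within each line; blocks and larger fits change the residual spread, and the cause was otherwise not tested. H2O2 in control cells called no member, but 4 with DESeq2, 1 without the filter, 3 with the replicate block and 4 with replicates 2 and 3 alone, a setting chosen after seeing the data. For the untreated lines DESeq2 gave 1, the block 2 (SGOL2 and ESPL1, higher) and replicates 2 and 3 alone 1. For the lines with NACET the block gave 2 (PLK1 and AURKB, higher) and replicates 2 and 3 alone 1. For H2O2 against NACET in control cells DESeq2, upper-quartile normalization and the block gave 1 each. Across lines samples of numbers 1 and 3 deviated together (correlations 0.593 to 0.777), and those of number 2 did not (-0.259 to -0.039). The blocks between lines thus rest on a pairing that holds only in part. The paired analysis changed no other count of members by over 1.5 times. The counts of members in this section are given without the share of all genes in each setting. In control cells with H2O2, DEPDC1 (0.17) was -0.08 and CENPA (0.24) was -0.07 with replicates 2 and 3 alone, and without a replicate DEPDC1 ran from -0.01 to 0.27, CENPA from 0 to 0.38, SGOL2 from -0.28 to 0.05 and CCNB1 from -0.29 to 0.11. All 56 members had at least 63 counts in each library, so that the spread of 3 samples, and not depth, limits these values.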
